A study of Rattus norvegicus with 4 samples.

Results

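The protein part of the cytosolic ribosome was followed in rat liver after long exposure to ciprofibrate. Every spot that carried a single gene symbol of a cytosolic ribosomal protein in the array's annotation was taken, by name alone. This gave 75 of the 7688 spots of the array, for 41 of the 3102 named genes, of which 27 encode proteins of the large subunit and 14 proteins of the small subunit. Each gene had a single cDNA clone, spotted in 1, 2 or 3 places. Of the 41 symbols, 6 belong to listed pseudogenes or paralogs, all of them named after the large subunit.

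The treated animals were 4 female Fischer rats dosed with ciprofibrate at 50 mg per kg of body weight each day for 60 days, and the reference was a single RNA pool from 5 control rats. Ciprofibrate is a fibrate, which activates the nuclear receptor PPARα and causes peroxisome proliferation in rodent liver. Each of the 4 two-colour arrays set the liver RNA of a treated rat (channel 1) against this pool (channel 2). As the channels were in this order on every array, treatment and channel cannot be told apart in any ratio or p. The rats' age and the dosing of the pooled rats are not stated in the labels. The pool counts as 1 control sample, and variation among the control rats is in none of the values. The labels do not number the treated rats; if arrays shared an animal, the spread between them would be technical.

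The ribosome translates messenger RNA into protein. Its small subunit reads the message, and its large subunit joins amino acids and holds the exit tunnel for the new chain. In mammals the messages of ribosomal proteins share a tract of pyrimidines at their 5′ end, through which the kinase mTOR controls their translation as a group. Growing or regenerating liver is known to make more ribosomes.

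Sequences around the annotated start of transcription were read for runs of pyrimidines. The RefSeq promoter table of the GRCr8 assembly held 34 of the 41 genes; Rps29, Rpl15, Rpl30, Rpl37a, Rpl37l1, Rpl17-ps16 and Rpl18-ps7 were not matched. The sequences given are those of the 2 genes with the highest ratio and the gene with the lowest ratio of each subunit among those matched, from 35 bases before the annotated start to 20 bases after it, 5′ to 3′ on the coding strand. Capitals mark the longest unbroken run of C and T in each stretch.
Rpl4 (chr8:73566442-73566496, plus strand): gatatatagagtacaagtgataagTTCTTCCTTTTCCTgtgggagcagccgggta
Rpl5 (chr14:1995206-1995260, minus strand): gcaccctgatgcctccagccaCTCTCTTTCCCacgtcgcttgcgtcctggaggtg
Rpl3l (chr10:14258411-14258465, plus strand): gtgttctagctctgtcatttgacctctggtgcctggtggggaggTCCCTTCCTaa
Rps6 (chr5:106420521-106420575, minus strand): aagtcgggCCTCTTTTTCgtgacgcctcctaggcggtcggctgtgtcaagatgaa
Rps23 (chr2:23814482-23814536, plus strand): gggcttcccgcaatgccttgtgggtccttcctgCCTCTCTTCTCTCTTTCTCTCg
Rps3a (chr2:173827023-173827077, minus strand): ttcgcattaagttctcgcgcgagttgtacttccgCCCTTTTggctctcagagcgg

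In Rpl4, Rps23 and Rps3a the run spans the annotated start. In Rpl5 and Rps6 it lies before the start, and in Rpl3l, the paralog of Rpl3 known from striated muscle, after it. From 15 bases before to 25 bases after the start, CTTTC or CTTTT stood on the coding strand of 25 of the 34 genes (73.5%), against 9.16% of all 33469 promoters of the table. On the opposite strand it stood in 0 of the 34, against 9.41% of all promoters. The motif was chosen after the sequences had been seen. Of the genes printed, Rps6 and Rpl3l were without it in that window. The run of Rps6 does hold CTTTT, but lies from 27 to 18 bases before the start, outside the window. The 21 measured genes with the motif in the window had a median log2 ratio of 0.24. The 8 without it there, Rps6 among them, had one of 0.13, a description with no test.

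The direction of the ratio is not stated by the labels, which name the channels and no dyes. Of 11 measured textbook genes induced by peroxisome proliferators, 8 had means above 0 and 3 below it (over all clones, 2298 of 4704 were above 0), among them Ech1 at 0.67 ± 0.10 and Acot2 at -0.39 ± 0.09 (SD, n = 4). Of the 11, 4 were positive calls by limma and 1, Acot2, a negative one (adjusted p = 0.0237). Over all clones 13.6% and 15.0% were. With a position surface subtracted, described further on, 2 were positive calls and 1 was negative, where 2.85% and 11.3% of all clones were. Ech1 was then at 0.31 ± 0.12, and the negative call was Cpt1a at -0.35 ± 0.09 (limma adjusted p = 0.0315). On this basis and on the channel order, a positive ratio is read, with that limit, as likely higher in the treated livers, and values are given as log2 of treated over control in that reading. Replicate 2 stood apart: over all spots it correlated with the other arrays at 0.46 to 0.53, and these with each other at 0.67 to 0.76. Ratios also followed the place of a spot on the slide, with a median of 0.15 over the clones of the left printing blocks and of -0.16 over those of the right ones. Results are therefore also given without replicate 2 and with the position taken out. The table holds no intensities, so a weak spot cannot be told from a strong one.

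Ribosomal protein genes leaned to positive ratios of small size. Of the 35 genes with a ratio on all 4 arrays, 28 had a mean above 0, and the median was 0.23 (log2), against -0.01 over all 4704 clones tested. By limma (Benjamini-Hochberg adjustment over all clones, threshold 0.05), 12 of the 35 were positive calls (34.3%), where 13.6% of all clones were. In the negative direction 0 of the 35 were called, where 15.0% of all clones were. At an unadjusted limma p under 0.05, 17 of the 35 were positive and 1, Rps3a, negative, against 983 and 1078 of the 4704 clones. The unmoderated statistic called 0 of the 35 negative, but only 4 of all clones, so that 0 says little. On all 4 arrays 22 of the 35 had a positive ratio, against 27.2% of all clones, and 3 had a negative one on all 4, against 25.6%. None reached 2-fold, and the largest difference was 1.46-fold. Of these 12 positive calls, 0 held with a position surface subtracted, 1 with the neighbours' median subtracted and 5 with block medians subtracted. Under these settings, described further on, 2.85%, 3.59% and 8.08% of all clones were positive calls, and 5.71%, 11.4% and 22.9% of the ribosomal genes. In whole liver, a change in the number of cells of a type and a change in RNA per cell cannot be told apart.

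**Figure D1:**
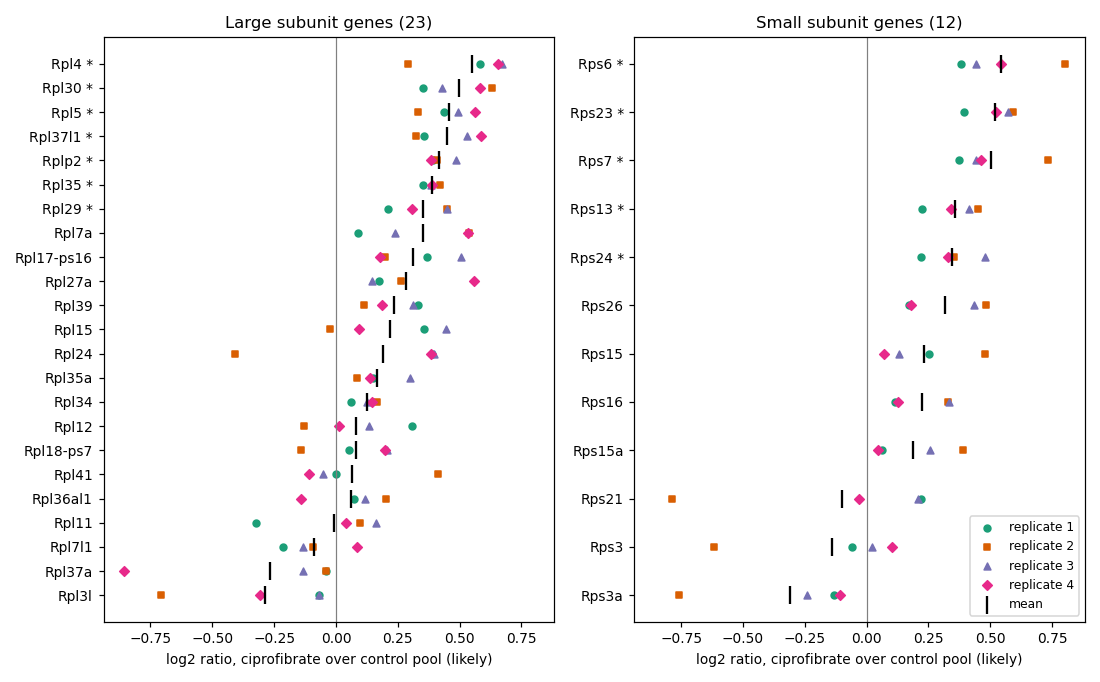
Log2 ratio of each of the 35 measured ribosomal protein genes (rows, sorted by mean) on the 4 arrays, with large subunit genes on the left and small subunit genes on the right; coloured symbols are arrays, the black bar is the mean, and an asterisk marks a gene called positive by limma. The 12 called genes have all 4 arrays above 0, while Rps3a, Rpl37a and Rpl3l have all 4 below it.

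In the large subunit, 7 of 23 measured genes were called positive and 0 negative. Rpl4, a protein whose long loop lines the exit tunnel, had log2 ratios of 0.58, 0.29, 0.67 and 0.65 on replicates 1 to 4, a mean of 0.55 ± 0.18 (SD, n = 4, adjusted p = 0.0120). It stood above 97.3% of all clones tested, and its value on replicate 2 was the lowest. Rpl30, which in yeast controls the splicing of its own transcript, was at 0.35, 0.63, 0.43 and 0.58 (mean 0.50 ± 0.13, adjusted p = 0.0131). Rpl5, which carries a small ribosomal RNA into the subunit and can bind the p53 regulator Mdm2, was at 0.44, 0.33, 0.49 and 0.56 (mean 0.46 ± 0.10, adjusted p = 0.0147). These 3 genes were positive on every array. Rpl37l1, listed with Rpl37 as an older name, was at 0.36, 0.32, 0.53 and 0.59 (mean 0.45 ± 0.13, adjusted p = 0.0175). Rplp2, an acidic protein of the stalk that recruits translation factors, was at 0.39, 0.41, 0.49 and 0.39 (mean 0.42 ± 0.05, adjusted p = 0.0173). The 4 arrays of Rplp2 lay within a narrow band, and so did those of Rpl35, a protein at the mouth of the exit tunnel. Rpl35 was at 0.35, 0.42, 0.38 and 0.39 (mean 0.39 ± 0.03, adjusted p = 0.0211). The last call was Rpl29 at 0.35 ± 0.12 (adjusted p = 0.0334).

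Genes of the same subunit were also found near or below 0. Rpl11, the partner of Rpl5 in the same RNA complex, was at -0.32, 0.10, 0.16 and 0.04, a mean of -0.01 ± 0.22 (SD, n = 4, adjusted p = 0.971); the difference between the partners was not tested. The lowest was Rpl3l, the muscle paralog, at -0.07, -0.71, -0.07 and -0.31 (mean -0.29 ± 0.30, adjusted p = 0.129). All 4 of its values were below 0, with replicate 2 far under the others. Rpl37a was at -0.04, -0.04, -0.13 and -0.86 (mean -0.27 ± 0.40, adjusted p = 0.214), and here replicate 4 was the low one. Rpl7l1, a factor of large subunit assembly named for its likeness to Rpl7, was at -0.21, -0.09, -0.13 and 0.09 (mean -0.09 ± 0.13, adjusted p = 0.525). Between these and the called genes lay 12 more with means from 0.06 (Rpl36al1) to 0.35 (Rpl7a, adjusted p = 0.0538), none of them called. Rpl41, the smallest protein of the ribosome, was at 0.06 ± 0.24.

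In the small subunit, 5 of 12 measured genes were called positive and 0 negative. Rps6, which is phosphorylated by the S6 kinases downstream of mTOR, was at 0.38, 0.80, 0.44 and 0.54 (mean 0.54 ± 0.18, SD, n = 4, adjusted p = 0.0129). Rps23, which reaches into the decoding centre, was at 0.39, 0.59, 0.57 and 0.52 (mean 0.52 ± 0.09, adjusted p = 0.0105), the smallest adjusted p of all 35 genes. Rps7, another binding partner of Mdm2, was at 0.37, 0.73, 0.44 and 0.46 (mean 0.50 ± 0.16, adjusted p = 0.0140). In Rps6 and Rps7 replicate 2 was the highest array, the opposite of Rpl4. Rps13 was at 0.22, 0.45, 0.41 and 0.34 (mean 0.36 ± 0.10, adjusted p = 0.0304). Rps24, a gene mutated in some human patients with Diamond-Blackfan anaemia, was at 0.34 ± 0.11 (adjusted p = 0.0345) and likewise positive on every array.

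The lowest small subunit genes were at their lowest on replicate 2. Rps3a was at -0.13, -0.76, -0.24 and -0.11 (mean -0.31 ± 0.30, SD, n = 4, adjusted p = 0.109) and negative on every array. Rps3, a protein at the entry of the messenger RNA channel, was at -0.06, -0.62, 0.02 and 0.10 (mean -0.14 ± 0.33, adjusted p = 0.471). Rps21 was at 0.22, -0.79, 0.21 and -0.03 (mean -0.10 ± 0.47, adjusted p = 0.696). Without replicate 2, Rps3a had a mean of -0.16, Rps3 had one of 0.02 and Rps21 one of 0.13. Rps26, Rps15, Rps16 and Rps15a lay between 0.19 and 0.32, positive on all 4 arrays and not called.

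The subunits were compared by the median over their genes on each array. The large subunit had medians of 0.21, 0.20, 0.30 and 0.19 on replicates 1 to 4, and the small subunit 0.22, 0.42, 0.37 and 0.15. Large minus small was -0.01, -0.22, -0.08 and 0.03, a mean of -0.07 ± 0.11 (SD over 4 arrays). The difference was thus smaller than its spread between arrays and had both signs. Within the left printing blocks alone the median was 0.32 over 14 large subunit genes and 0.35 over 8 small subunit genes, and within the right blocks it was 0.12 over 8 large and 0.21 over 4 small subunit genes. With the position surface subtracted, large minus small was 0.04, -0.19, -0.04 and -0.01. No p is given for these medians, because the genes were chosen with earlier results known. Positive calls were 30.4% of the large and 41.7% of the small subunit genes, where 13.6% of all clones were. They were 4.35% and 8.33% with the surface subtracted (all clones 2.85%), and 13.0% and 41.7% with block medians subtracted (8.08%). With the median of the neighbouring spots subtracted the order was the other way, 17.4% and 0.00% (3.59%). The differences were not tested.

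**Figure D2:**
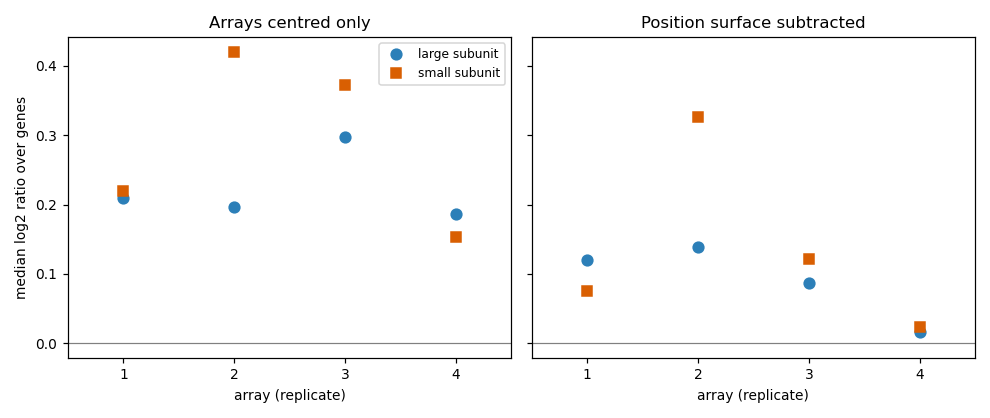
Median log2 ratio over the 23 large subunit genes (circles) and the 12 small subunit genes (squares) on each of the 4 arrays, with arrays centred only (left) and after subtracting a smooth position surface (right). The subunits lie close together on replicates 1, 3 and 4 and are farthest apart on replicate 2, at 0.20 for the large and 0.42 for the small subunit on the left.

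Over the 35 genes, the arrays other than replicate 2 correlated with each other at 0.63 to 0.82, and replicate 2 with them at 0.43 to 0.58. Over all spots these values were 0.67 to 0.76 and 0.46 to 0.53. All 4 arrays share the control pool, which by itself can make their ratios correlate, so the values are a description. Spots of the same clone agreed closely, but 97.5% of such pairs on the array lay in the same printing block. Their agreement therefore does not separate the clone from its place on the slide. In 27 ribosomal clones with 2 measured spots, the means of the spots differed by a median of 0.05 (log2), against 0.06 in 1573 other such clones. The widest gap was that of Rps3a, at 0.39: one spot was at -0.13, -0.67, 0.11 and 0.24 on replicates 1 to 4, and the other at -0.13, -0.84, -0.59 and -0.45. The negative mean of Rps3a on replicates 3 and 4 therefore came from the second spot alone.

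Of the 6 genes that could not be tested, Rpl22, Rpl31, Rplp0 and Rpsa had no ratio on any array. Rplp0 forms the base of the stalk and is widely used as a reference transcript, and Rpsa is the small subunit protein also known as the laminin receptor precursor. Rplp1, the partner of Rplp2 in the stalk, had a ratio on replicate 4 alone, at 0.90. Rps29 had a single ratio, -2.77 on replicate 2 from 1 of its 2 spots. These single values have no replicate and were not compared. Of the 75 spots, 64 were measured on all 4 arrays (85.3%), against 82.9% of all spots.

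Where a ribosomal clone lay on the slide went with its ratio. Of the 35 genes, 22 lay in the left blocks, 12 in the right ones and 1 in both. The left thus held 62.9% of the ribosomal genes and 50.5% of all clones, so the ribosomal share of positive calls was set against a background placed less often on the side of higher ratios. Of the 12 positive calls, 11 were in the left blocks, 50.0% of the 22 there, where 25.5% of all left clones were positive calls. The remaining call, Rpl29, was 1 of the 12 genes of the right blocks (8.33%), where 1.39% of all right clones were called. The median ratio was 0.35 over the ribosomal genes of the left and 0.18 over those of the right blocks, against 0.15 and -0.16 over all clones there. On each side the median of the ribosomal genes was thus above that of all clones, and it was higher on the left.

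**Figure D3:**
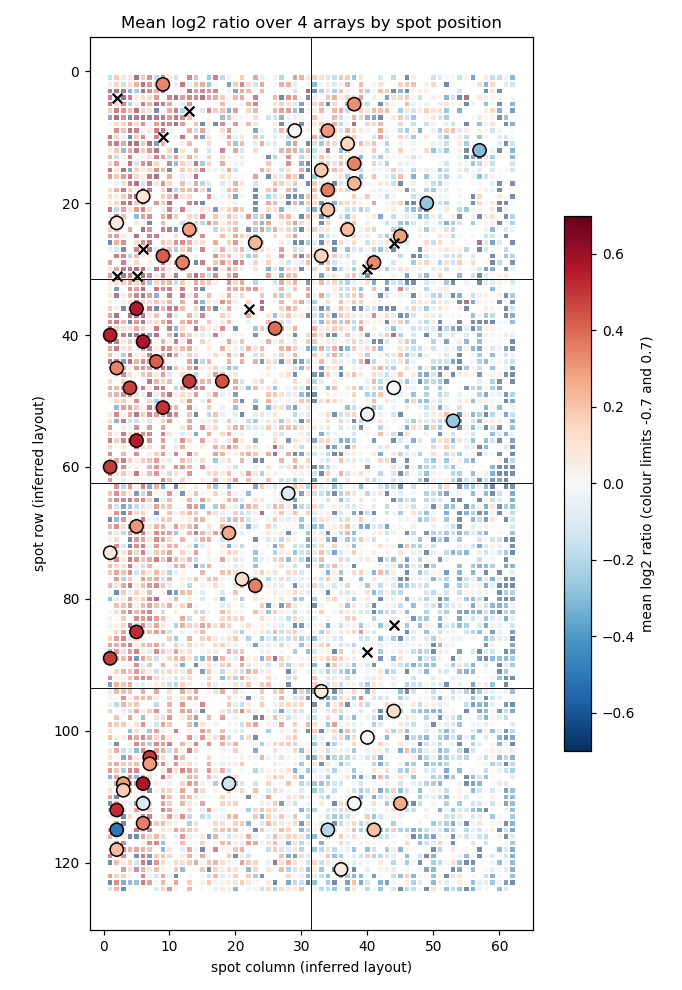
Mean log2 ratio over 4 arrays at each spot of the slide, in the layout read from the values (8 blocks of 31 by 31 spots); small squares are all spots measured on every array, circles with black edges are ribosomal protein spots on the same colour scale, and crosses are ribosomal spots without a ratio on every array. The left blocks are mostly red (median 0.15) and the right blocks mostly blue (median -0.16), and most red circles lie on the left.

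A single clone, that of Rpl12, had spots on both sides. With 1 spot on the left, a difference between sides cannot be told apart here from one between spots. Spots of Rps3a within a left block also differed, at means of -0.11 and -0.50. Rpl12, a protein of the stalk base, had 2 spots in a right block, at 0.19, 0.13, -0.12 and -0.23 and at -0.03, 0.06, -0.01 and -0.10 on replicates 1 to 4. Its spot in a left block was at 0.77, -0.58, 0.54 and 0.36. On replicates 1, 3 and 4 the left spot of the same clone was the higher one, and on replicate 2 the lower one. The 3 spots averaged 0.08 ± 0.19 (SD, n = 4, adjusted p = 0.597).

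Each ribosomal clone was next set against its own surroundings, the median of the spots within 2 rows and 2 columns of it that were not ribosomal. Of the 35 genes, 24 had a ratio above that of their neighbours, and so did 11 of the 12 called ones. The neighbours of the called genes had ratios from 0.07 to 0.44, with a median of 0.32, and those of the genes not called a median of 0.07. Own and neighbouring ratio correlated at 0.58 (Pearson) and 0.61 (Spearman) over the 35 genes, which share slides and libraries. Rpl4 had 0.55 against neighbours at 0.44, and Rps23 had 0.52 against 0.41. Rps6 had 0.54 against 0.11, Rplp2 had 0.42 against 0.15, and Rpl29 had 0.35 against 0.07. In 9 of the 12 called genes the neighbours' ratio was more than 50% of the gene's own, and Rps6, Rplp2 and Rpl29 were the other 3.

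**Figure D4:**
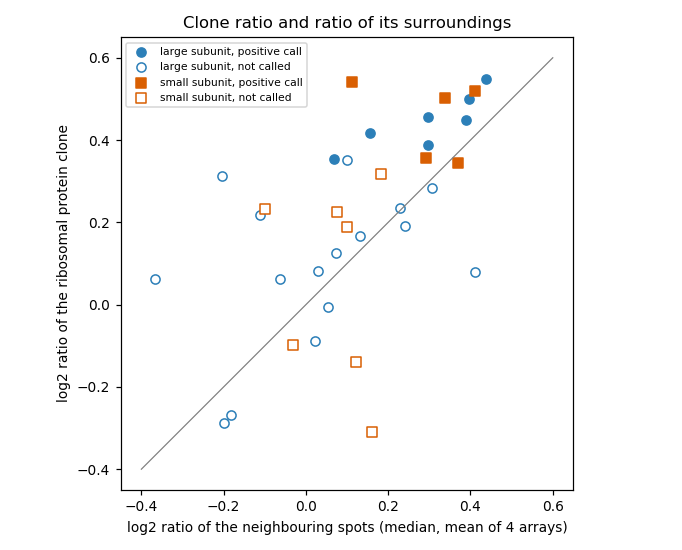
Mean log2 ratio of each of the 35 ribosomal protein clones (vertical) against the median ratio of the non-ribosomal spots around it (horizontal), both averaged over 4 arrays; circles are large and squares small subunit genes, filled where called positive, and the grey line marks equal values. Of the 12 filled symbols 11 lie above the line, many of them close to it and at neighbour ratios up to 0.44.

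When a smooth surface fitted to spot position was subtracted, the median of the 35 genes was 0.08, against -0.03 over all clones, and 0 of the 12 positive calls held. Rplp2 was at 0.26 ± 0.09 (SD, n = 4, adjusted p = 0.0587), Rpl29 at 0.27 ± 0.10 (adjusted p = 0.0587) and Rps6 at 0.30 ± 0.26 (adjusted p = 0.101). Rps13 (0.01) and Rps24 (-0.03) were close to 0. The calls there were 2 positive genes (5.71%), where 2.85% of all clones were, and 2 negative ones, where 11.3% of all clones were. The positive ones were Rps15, at 0.34 ± 0.15 (adjusted p = 0.0452), and Rpl17-ps16, at 0.36 ± 0.07 (adjusted p = 0.0269). The negative ones were Rps3a, at -0.55 ± 0.22 (adjusted p = 0.0227), and Rpl18-ps7, at -0.28 ± 0.08 (adjusted p = 0.0483). A cDNA clone listed under a pseudogene symbol can also bind the transcripts of the parent gene, which cannot be told apart here.

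Subtracting the neighbours' median in place of the surface gave 4 positive and 2 negative genes, where 3.59% and 10.9% of all clones were called. Of the 12 calls, Rpl29 held, at 0.29 ± 0.07 (SD, n = 4, adjusted p = 0.0473). The others were Rpl17-ps16 at 0.52 ± 0.06, Rpl36al1 at 0.43 ± 0.21 and Rpl15 at 0.33 ± 0.12. Rps3a was again negative at -0.47 ± 0.17 (adjusted p = 0.0287), as was Rpl18-ps7 at -0.33 ± 0.10. Rps3a and Rpl18-ps7 were thus negative, and Rpl17-ps16 positive, under both ways of taking the position out. Subtracting block medians, a coarser step, gave 8 positive genes, where 8.08% of all clones were called, and 1 negative one, Rps3a, where 13.3% were. Of the 12 calls, Rpl4, Rpl29, Rps6, Rps7 and Rps23 held. With the surface subtracted and replicate 2 left out, 4 genes were positive (all clones 9.16%), Rplp2, Rpl29, Rps15 and Rpl17-ps16, and Rps3a and Rpl18-ps7 were negative (all clones 13.1%). With every spot as its own unit, 21 of the 64 measured ribosomal spots were positive calls and 1 was negative. Of all spots, 13.6% and 15.4% were called.

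The number of calls also varied with the array left out, as did that over all clones. Without replicate 2 there were 15 positive calls, where 18.5% of all clones were, the 12 among them and Rpl24, Rpl39 and Rpl17-ps16 in addition. Without replicate 1 there were 4 (all clones 6.53%), Rps6, Rps23, Rps7 and Rpl30. Without replicate 4 there were 2 (2.83%), Rps6 and Rps23, and without replicate 3 there was 1 (2.10%), Rps6, at 0.57 with an adjusted p of 0.0490. Rps6 was the gene of the 35 whose call held without each array in turn. No ribosomal gene was a negative call by limma without replicates 1, 2, 3 or 4, where 8.23%, 19.0%, 6.84% and 7.47% of all clones were. The median of the 35 genes stayed between 0.21 and 0.28.

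Other genes of protein synthesis are given beside the shares over all clones, 13.6% positive and 15.0% negative calls. These shares were 2.85% and 11.3% with the position surface subtracted. At an unadjusted limma p under 0.05, 983 of the 4704 clones were positive and 1078 negative. Of 3 measured elongation factor genes, Eef2, which moves the ribosome along the message, was a positive call at 0.41 ± 0.16 (SD, n = 4, adjusted p = 0.0249), and 0 were called negative by limma, also at an unadjusted p under 0.05. Eef1a1, the main factor that delivers transfer RNA, was at -0.13 ± 0.15. Of 11 genes whose symbols start with Eif, 2 were positive and 2 negative, shares near those over all clones. Eif4ebp1, a repressor of initiation that mTOR inactivates, was at 0.62 ± 0.19 and Eif5 at 0.48 ± 0.17. Eif2b2, a subunit of the exchange factor of initiation, was at -0.79 ± 0.17 (adjusted p = 0.00439) and Eif4b at -0.39 ± 0.26. With the position surface subtracted, Eif2b2 was still a negative call at -0.68 ± 0.13, and Eif2b1, another subunit of that factor, was one at -0.46 ± 0.10 (adjusted p = 0.0160). Eif4b was at -0.49 ± 0.33, larger in size than before, and missed the threshold (adjusted p = 0.0562). Eef2 (0.04), Eif4ebp1 (0.32) and Eif5 (0.25) had smaller ratios and were not called.

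Of 5 measured genes that build ribosomes or sit in the nucleolus, 3 were negative calls and 0 positive by limma. Over all clones 15.0% were negative and 13.6% positive. At an unadjusted limma p under 0.05, 3 were negative and 0 positive, against 1078 and 983 of all 4704 clones. Polr1b, a subunit of the polymerase that transcribes ribosomal RNA, was at -0.26, -2.31, -1.31 and -1.38 (mean -1.32 ± 0.84, SD, n = 4, adjusted p = 0.0148). Ubtf, the factor that starts this transcription, was at -0.20, -0.82, -0.71 and -0.40 (mean -0.53 ± 0.28, adjusted p = 0.0218). Both were below 0 on every array, as was Nolc1, a nucleolar phosphoprotein, at -0.74 ± 0.50 (adjusted p = 0.0235). With the surface subtracted these 3 stayed negative calls and a nucleolar chaperone of the list, Npm1, joined them at -0.59 ± 0.34 (adjusted p = 0.0385). Under that setting 11.3% of all clones were negative calls. Polr1c was at 0.13 ± 0.09. The difference between these genes and the ribosomal proteins was not tested.

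Of 14 genes of the mitochondrial ribosome, which is built from its own set of proteins, 1 was positive and 3 negative. Over all clones 13.6% and 15.0% were. The 14 genes had a median of -0.27, against 0.23 for the cytosolic set. These medians were closer, at -0.18 and 0.08, with the position surface subtracted, and the difference was not tested. Mrpl23 was at 0.35 ± 0.12, Mrpl1 at -0.47 ± 0.25 and Mrps17 at -0.34 ± 0.10 (SD, n = 4). With the surface subtracted, 0 were positive and 2 negative by limma, where 2.85% and 11.3% of all clones were. The negative ones were Mrpl1 at -0.62 ± 0.21 and Mrps23 at -0.44 ± 0.15. Tpt1, a growth-linked protein, was at 0.51 ± 0.10 (adjusted p = 0.0113), the 1 call among 4 ribosome-associated genes. It was at 0.18 ± 0.13 with the surface subtracted. Of 6 transfer RNA synthetases 0 were called in either direction by limma, with means from -0.42 to 0.10. At an unadjusted limma p under 0.05, 0 were positive and 1 negative, against 983 and 1078 of all 4704 clones. Among 6 kinases and regulators, Eif4ebp1 was positive, as given above, and Akt1 (-0.57 ± 0.37) and Rps6ka5 (-0.61 ± 0.48) were negative calls, and with the surface subtracted Akt1 was called at -0.79 ± 0.24. Rps6ka5 was then at -0.75 ± 0.57, larger in size, and missed the threshold (adjusted p = 0.0608). Rps6kb1, which phosphorylates Rps6, was at -0.04 ± 0.16.

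Markers of cell types were few on the array, and their counts stand beside 13.6% positive and 15.0% negative calls over all clones. These shares were 2.85% and 11.3% with the surface subtracted. All 7 clones of 6 hepatocyte genes had means below 0, from -0.69 (Tf) to -0.22 (Apoa1), and 2 of them were negative calls. In each of them replicate 2 was the lowest array. A clone of Alb was at 0.11, -1.55, -0.31 and -0.42 on replicates 1 to 4, and Apoa1 at -0.10, -0.72, -0.05 and -0.01. With the surface subtracted Tf stayed a negative call at -0.66 ± 0.19 (SD, n = 4). Fgb, the other one, was then not called (limma adjusted p = 0.0879). Of 2 leukocyte genes, 1 was a negative call. Of 2 red blood cell genes 1 was negative, and of 6 stellate and endothelial genes 2 were positive and 1 negative. With the surface subtracted both positive ones, Des (0.62, then 0.25, adjusted p = 0.146) and Kdr (0.40, then 0.14, adjusted p = 0.274), were not called, and Acta2 stayed negative. Of 2 cell division genes, Ccnb1 was a positive call at 0.43 ± 0.13 (SD, n = 4), and at 0.10 ± 0.03 with the surface subtracted it was not called. Their part in the ribosomal ratios was not tested.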

How the data were processed

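Liver RNA of treated rats (4 in the study, not numbered by array) was measured against 1 control pool on 4 two-colour arrays. The values deposited by the authors are log10 ratios, a unit read from the values themselves, since back-transformed to base 10 they were whole thousandths (within 0.02) on 100.0% of spots. The sources used here do not give the scanner, background correction or normalization. A value that recurred on 1171 to 1189 spots of an array was read as a missing ratio. Values were converted to log2, spots of a listed clone averaged (5674 rows, each of the 2436 unlisted spots its own row), and each array centred on its median. Symbols were updated through the Entrez number for 5140 of 5169 spots. Clones measured on all 4 arrays were tested with limma 3.58.1 in R 4.3.3 (lmFit, eBayes, mean against 0, two-sided, Benjamini-Hochberg, threshold 0.05), after checks on simulated data. With 4 arrays, exact sign flips reach 0.125 at the smallest. The number of arrays limits the precision.

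The slide layout is inferred: ratios repeated at a lag of 31 spots (autocorrelation 0.386 on replicate 4, against 0.339 and 0.323 beside it). The surface was a robust loess fit (span 0.05, degree 1). Members, lists and tests were chosen with earlier results of these data known. Values per array were given for the 5 highest and 3 lowest large and the 4 highest and 3 lowest small subunit genes, the stalk genes and some others; of the other translation lists, called genes were named, up to 2 of each sign, and of the panel and the cell markers mainly counts were given. Eif2b1, Npm1, Mrps23, Cpt1a, Des, Kdr, Acta2, Ccnb1, Tf, Apoa1, Eef1a1, Polr1c, Nolc1, Rps6kb1, Rpl11, Rpl41, Rpl12 and Rps13 were singled out after their values were seen. So were Alb and Fgb. Ribosomal clones under several symbols (4 clones) were left out. Alternatives are in the closing section.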

Additional observations from a re-analysis of the deposited data

Results flagged for a closer look

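In 2 of the 35 ribosomal protein genes, 1 array lay far from the other 3. Rpl24, a large subunit protein at the contact between the subunits, was at -0.41 on replicate 2 and between 0.39 and 0.40 on the others; without replicate 2 it was a positive call at 0.39 (limma adjusted p = 0.0156). Rpl37a, from a single spot, was at -0.86 on replicate 4 and between -0.13 and -0.04 on the others. Chance flags about 1 in 20 such sets of 4. Over all 4704 clones 401 (8.52%) had such an array, and in 283 of these it was replicate 2, against 5.71% of the ribosomal genes.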

How the results depend on the processing

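No paired analysis was possible because the study has a single group of arrays. The 12 positive and 0 negative ribosomal calls (limma; over all clones 638 and 706) depended on spot position and on the arrays used. With the position surface subtracted they were 2 and 2 (134 and 531 over all clones). With the neighbours' median subtracted they were 4 and 2 (169 and 512), and with block medians subtracted 8 and 1 (380 and 624). With each of the 64 measured ribosomal spots as its own unit they were 21 and 1 (866 and 982 over all spots). Array weights gave 20 and 0 (1148 and 1211 over all clones). By limma's treat against 1.2-fold they were 0 and 0 (25 and 150), and by the unmoderated statistic 1 and 0 (6 and 4). Averaging per gene gave 13 and 0 (422 and 466 over all genes). Keeping the recurring value as a ratio gave 18 and 0 (993 and 462 over all clones), with missing ratios then counted as values. With each array left out in turn, the ribosomal positive calls ranged from 1 to 15, and the calls over all clones from 99 to 872 positive and from 323 to 895 negative.

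The median of the 35 genes, 0.23, moved to 0.0823 with the surface (large 0.0823, small 0.0938), to 0.0927 with the neighbours' median (large 0.0634, small 0.1027) and to 0.295 with the recurring value kept (large 0.27). With an array left out it ranged from 0.21 to 0.28, that of the large subunit from 0.14 to 0.29 and that of the small from 0.23 to 0.32. A further pair of alternatives was chosen after seeing the data. With the surface subtracted and replicate 2 left out there were 4 positive and 2 negative ribosomal calls and medians of 0.0761 over all, 0.0761 over the large and 0.0811 over the small subunit. Leaving out pseudogene and paralog symbols moved no count by over 1.5 times and no median by over 1 SD. Large minus small, -0.07, was 0.0057 without these symbols and 0.0009 with the surface subtracted and replicate 2 left out, both within 1 SD of it.

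Of the values of single genes under an alternative, 27 had the opposite sign. Rpl11 was at 0.0223 with array weights, at 0.10 with the recurring value kept, and from -0.0629 to 0.10 with an array left out. Rpl7l1 was at 0.0152 with that value kept. Rpl41 was at -0.0284 with weights and from -0.053 to 0.1202 with an array left out, and Rps3 from -0.2191 to 0.0209. Rps21 was at 0.0817 with block medians subtracted, 0.11 with weights, 0.0061 with the recurring value kept, 0.22 with the surface subtracted and replicate 2 left out, and from -0.2039 to 0.13 with an array left out. Rpl18-ps7 was at -0.28 (surface), -0.33 (neighbours), -0.13 (blocks) and -0.31 (surface, no replicate 2). Rpl24 was at -0.0802 (surface) and -0.045 (neighbours), Rpl39 at -0.0145 (surface) and -0.0014 (surface, no replicate 2), and Rpl27a at -0.018 (neighbours) and -0.0054 (surface, no replicate 2). Rps24 was at -0.0254 (surface), -0.0206 (neighbours) and -0.10 (surface, no replicate 2), where Rps13 was at -0.0832 and Rps16 at -0.0265. The cause of these changes was not tested.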
